A study of Ovis aries with 95 samples.

Results

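The hypothalamus and the brainstem of the fetal sheep (Ovis aries) were compared at 80 days of gestation, the youngest of the ages collected. The comparison took the 4 hypothalamus and the 4 brainstem arrays labelled with that age, 8 of the 95 arrays of the series, and all probes for genes. The labels and methods name no treatment of the animals. The fetuses of each age included one pair of twins, and the labels do not say which arrays are theirs. The pituitary stalk was cut as the brain was lifted out, after which the hypothalamus, hippocampi and brainstem were dissected as blocks. The other groups of the series are the cortex and hippocampus at the same age and all 4 regions at 100, 120, 130 and 145 days and on the first day after birth. Strain and sex were not given in the sources used here.

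The hypothalamus lies at the base of the forebrain and holds the peptide neurons that govern the pituitary, feeding, water balance and reproduction. The brainstem joins the forebrain to the spinal cord. Its hindbrain part is laid out early by HOX transcription factors, which forebrain cells do not use, and it carries the serotonin neurons and the roof from which the choroid plexus of the fourth ventricle grows. The choroid plexus makes cerebrospinal fluid and secretes transthyretin, transferrin and insulin-like growth factor 2. In tissue blocks such as these, fewer cells of a type and less RNA per cell cannot be told apart.

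RNA was hybridised in a single colour to 60-base probes, and levels are log2 of the background-corrected, quantile-normalized intensity, so that a difference of 1 is a doubling. Differences are hypothalamus minus brainstem with their standard error (SE) from limma, and a gene was called where the p-value adjusted over the 12213 genes tested was under 0.05. Of these genes 836 carried a symbol. The region could not be separated from the slide, since the 4 arrays of each region lay on 3 slides that held no other region. Between 75.2 and 88.5% of the gene spots of an array were well above background.

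The hypothalamus arrays stood apart in quality. In the outer rows and columns of the array, which hold 20.9% of the gene spots, a hypothalamus array deviated from the mean of its region with an SD of 0.61 to 1.01, against 0.35 to 0.48 elsewhere on the same array, over probes with a mean level above 8. The same SD in the brainstem arrays was 0.23 to 0.27 near the edges and 0.19 to 0.22 elsewhere. A gene measured only by probes near an edge is marked as such below. Without those spots 9773 genes remained, of which 1772 were called higher in the hypothalamus and 565 higher in the brainstem. All 374 genes that had been called at 2-fold or more and were still measured kept their call. The remaining spots kept their normalized values, so this count could hardly change and does not test those calls.

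**Figure D1:**
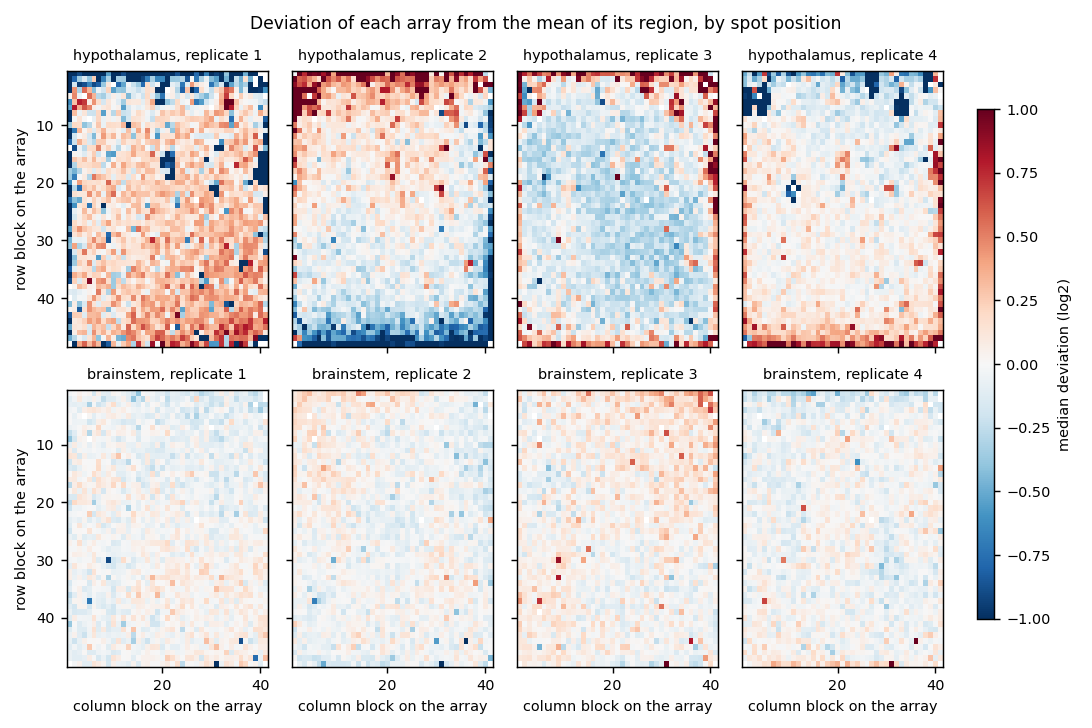
Median deviation of each array from the mean of its region (log2, colour scale from -1 to 1) over probes with a mean level above 8, by block of rows (vertical axis) and columns (horizontal axis) on the array, with the hypothalamus arrays in the upper row and the brainstem arrays in the lower row. The hypothalamus arrays deviate in bands along their edges with an SD of 0.61 to 1.01, and the brainstem arrays have no such bands.

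Between the 2 regions 1659 genes were called higher in the hypothalamus (13.6% of those tested) and 645 higher in the brainstem (5.28%). With the replicate number as a block the counts were 994 and 442. At 2-fold or more, 266 genes were higher in the hypothalamus (2.18%) and 192 in the brainstem (1.57%). The 4 arrays of one region lay wholly above or below the 4 of the other for 3372 genes (27.6%), with the hypothalamus above in 2345 (19.2%) and the brainstem above in 1027 (8.41%). Of all calls 72.0% were thus higher in the hypothalamus. This share was 62.0% when the scanner's processed signal was scaled to its 75th percentile in place of quantile normalization, and 56.9% in the authors' table of normalized values. Among genes with a symbol 94 were higher in the hypothalamus and 79 in the brainstem.

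**Figure D2:**
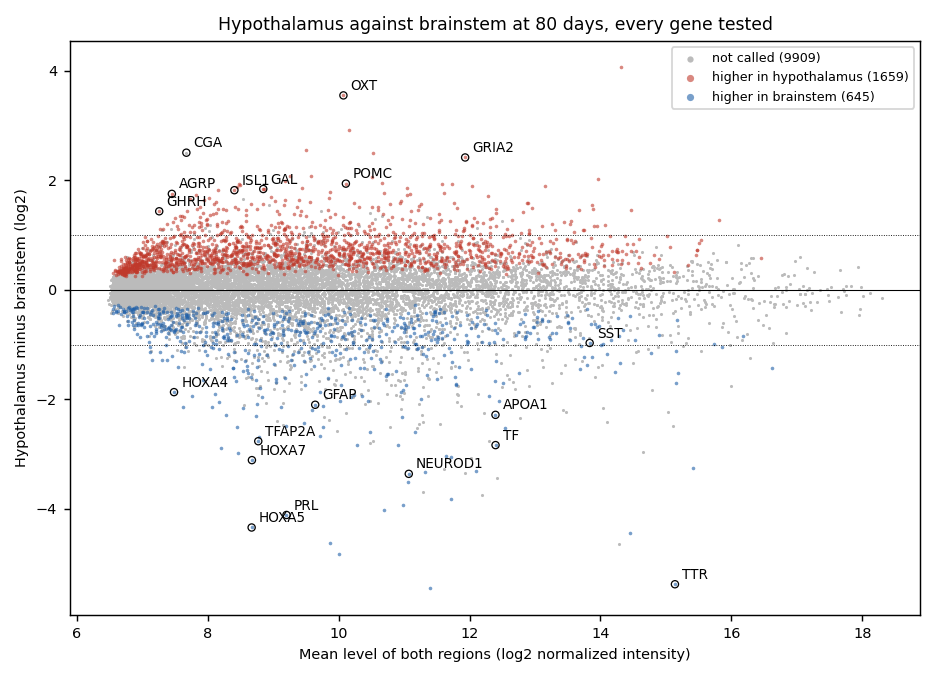
Difference between the regions (log2, vertical axis) against the mean level of both (log2 normalized intensity, horizontal axis) for the 12213 genes tested. Red points mark the 1659 genes called higher in the hypothalamus and blue points the 645 called higher in the brainstem, dotted lines mark 2-fold, and circles mark genes named in the text, from OXT at 3.55 to TTR at -5.37.

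The array probes shown here carry the main regional differences, as the array files give them, 5′ to 3′. They come from peptide genes and a glutamate receptor that were higher in the hypothalamus and from a HOX gene that was higher in the brainstem.
POMC: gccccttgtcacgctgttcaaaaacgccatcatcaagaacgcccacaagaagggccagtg
AGRP: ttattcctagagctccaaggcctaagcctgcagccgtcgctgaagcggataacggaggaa
GHRH: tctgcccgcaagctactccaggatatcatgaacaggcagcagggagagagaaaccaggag
GRIA2: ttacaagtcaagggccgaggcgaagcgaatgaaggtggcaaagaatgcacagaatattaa
HOXA5: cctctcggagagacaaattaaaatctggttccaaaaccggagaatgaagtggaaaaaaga

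HOX genes share a conserved homeobox, and whether a HOX probe also bound RNA of related HOX genes was not tested. The paired probes of a gene were mostly copies shifted along the transcript: both probes of OXT, POMC and HOXA5 share 59 of their 60 bases. Their close values were therefore not independent measurements. Of the 97 called genes with several probes, EEF1A1 and PDGFB had probes that pointed in opposite directions.

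Hormones and neuropeptides were called in both directions. Of 23 measured genes, 9 were higher in the hypothalamus (39.1%, against 13.6% of all genes) and 4 in the brainstem (17.4%, against 5.28%), with a median difference of 0.39, against a median of 0.06 over all genes. OXT, the precursor of oxytocin and its carrier neurophysin, differed most. The 4 hypothalamus arrays read 11.73, 11.98, 11.45 and 12.22, and the brainstem arrays 8.36, 8.22, 8.33 and 8.28. The groups were far apart, at a difference of 3.55 ± 0.16 (SE, n = 4 and 4), or 11.7-fold (limma, adjusted p = 2.5e-05). The cortex mean at this age was 7.82 and the hippocampus mean 8.12, so that the brainstem level was close to that of the regions outside the hypothalamus.

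POMC encodes the precursor of ACTH and of the melanocortin that restrains feeding. It read 10.78, 11.51, 10.92 and 11.11 in the hypothalamus and 8.93, 9.15, 9.29 and 9.19 in the brainstem, a difference of 1.94 ± 0.17 (adjusted p = 0.000376). AGRP, which opposes that melanocortin at its receptor, was at 8.15, 8.98, 8.28 and 7.89 against 6.54, 6.72, 6.48 and 6.55. Its difference was 1.75 ± 0.22 (adjusted p = 0.00194), and the cortex and hippocampus means of 6.48 and 6.54 lay at the brainstem level. The 2 opposing peptide genes of the arcuate feeding circuit were thus both higher in the hypothalamus at 80 days.

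GHRH, the releasing factor of growth hormone, read 7.65, 8.49, 7.67 and 8.09 in the hypothalamus and 6.58, 6.55, 6.45 and 6.58 in the brainstem, where 2 of 4 arrays were well above background. The difference was 1.43 ± 0.19 (adjusted p = 0.00235). GAL, or galanin, a peptide of hypothalamic and brainstem neurons, was at 10.41, 9.72, 9.19 and 9.74 against 8.20, 7.77, 8.14 and 7.58, a difference of 1.84 ± 0.26 (adjusted p = 0.00327). Of these genes GAL had the widest spread among the hypothalamus arrays, and its groups still did not overlap.

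Smaller differences were measured for NPVF, the RFamide peptide that inhibits gonadotropin release (1.21 ± 0.14, adjusted p = 0.00138), and for GRP, gastrin-releasing peptide (1.19 ± 0.21, adjusted p = 0.00791). The hippocampus mean of NPVF was 9.98, above the hypothalamus mean of 8.75, so NPVF was not highest in the hypothalamus among the 4 regions. PCSK1, the convertase that cuts prohormones, differed by 0.55 ± 0.16 and PMCH, the precursor of melanin-concentrating hormone, by 0.39 ± 0.12 (adjusted p = 0.0442 and 0.0484). Neither held firmly: with the replicate number as a block the adjusted p of PMCH was 0.105, and PCSK1 had an adjusted p of 0.243 with the scaled processed signal. OXT, POMC, AGRP, GHRH, GAL, NPVF and GRP kept their calls under all 19 alternative settings.

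**Figure D3:**
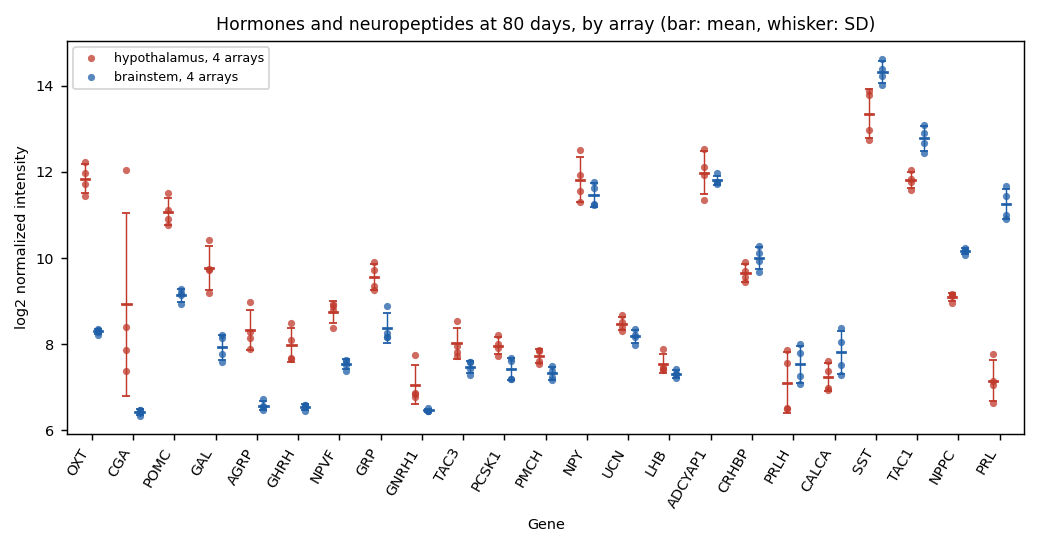
Level of the 23 measured hormone and neuropeptide genes (log2 normalized intensity) on the 4 hypothalamus arrays (red points) and the 4 brainstem arrays (blue points) at 80 days, with the mean (bar) and SD (whisker), ordered by the difference between regions. OXT, POMC, GAL, AGRP and GHRH lie wholly higher in the hypothalamus, and PRL, NPPC, TAC1 and SST wholly higher in the brainstem.

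CGA, the alpha subunit shared by the pituitary glycoprotein hormones, had a wide spread in the hypothalamus. Its arrays there read 7.38, 12.04, 8.41 and 7.87, and no brainstem array (6.40, 6.48, 6.47 and 6.34) was well above background. Set against the dimmest signal well above background on each brainstem array, CGA was at least 5.37-fold higher in the hypothalamus, but the difference of 2.50 ± 0.91 did not pass (adjusted p = 0.0919). Without hypothalamus replicate 2 it was 1.47, with an adjusted p of 0.0077. GNRH1, the releasing hormone of the gonadotropins, was likewise highest on replicate 2, at 7.76 against 6.78 to 6.86 on the other hypothalamus arrays, and no brainstem array was well above background. Its difference of 0.60 ± 0.21, at least 1.46-fold, did not pass (adjusted p = 0.084), and without that array it was 0.37 with an adjusted p of 0.0205. TAC3 (0.55 ± 0.18, adjusted p = 0.0712) and NPY (0.36 ± 0.26, adjusted p = 0.375) did not pass either.

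PRL was the only measured pituitary hormone called higher in the brainstem at 80 days. It encodes prolactin, and read 7.14, 7.78, 7.04 and 6.62 in the hypothalamus but 11.01, 10.91, 11.44 and 11.66 in the brainstem, a difference of -4.11 ± 0.26, or 17.3-fold (adjusted p = 0.000107). The cortex and hippocampus means were 6.74 and 6.71, so the brainstem was alone at this level. Its probe away from the edges gave -3.80 and the probe near an edge -4.41. Of the other pituitary hormones measured, POMC was higher in the hypothalamus, and CGA and LHB (0.24 ± 0.13, adjusted p = 0.22) did not pass. The second and brighter probe of LHB, with values on 3 hypothalamus arrays, was left out of that value and gave -0.56. At 100, 120, 130 and 145 days LHB was called higher in the brainstem (-0.43, -0.59, -0.43 and -0.60). Those values can rest on other probes than the value at 80 days, so no change with age is read from them.

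NPPC, TAC1 and SST were the remaining hormone and neuropeptide genes called higher in the brainstem. NPPC, the precursor of C-type natriuretic peptide, was at 9.12, 8.95, 9.14 and 9.17 in the hypothalamus and 10.18, 10.23, 10.17 and 10.08 in the brainstem (-1.07 ± 0.09, adjusted p = 0.000275). TAC1, the precursor of substance P, read 11.59 to 12.04 against 12.45 to 13.10 (-0.98 ± 0.16, adjusted p = 0.00608). SST, or somatostatin, which inhibits growth hormone release, read 12.75 to 13.89 against 14.03 to 14.64. Its difference of -0.97 ± 0.28 was just past the threshold (adjusted p = 0.0431) and was lost with the replicate number as a block (adjusted p = 0.102) and without the edge spots (adjusted p = 0.0655). CALCA (-0.58 ± 0.26), CRHBP (-0.35 ± 0.16), UCN (0.29 ± 0.12), ADCYAP1 (0.18 ± 0.23) and PRLH (-0.43 ± 0.36, by a probe near an edge) did not pass.

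Transcription factors of the hindbrain and spinal cord were almost all higher in the brainstem. Of 7 measured, 6 were called higher there (85.7%, against 5.28% of all genes) and none in the hypothalamus, with a median difference of -1.94. HOXA5 read 11.08, 11.04, 10.71 and 10.51 in the brainstem. In the hypothalamus it read 6.35, 6.46, 6.69 and 6.49, and 1 of these arrays was well above background. The difference was -4.34 ± 0.15 (adjusted p = 7.91e-06). Its size depended on how dim signal was treated, and was -8.42 with the scaled processed signal. HOXA7 was at 10.45, 10.44, 10.07 and 9.95 against 6.76, 6.79, 7.76 and 7.16 (-3.11 ± 0.24, adjusted p = 0.000228). For both genes the cortex and hippocampus means lay between 6.42 and 6.65, close to the lowest levels of the array.

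HOXA4 was well above background on all brainstem arrays, at 8.21 to 8.54, and on no hypothalamus array, so that it was at least 3.65-fold higher in the brainstem (adjusted p = 4.17e-05). That bound equalled its fitted fold, since its hypothalamus signal exceeded the dimmest signal well above background on each array. HOXC6, measured by a single probe near an edge, differed by -1.94 ± 0.30 (adjusted p = 0.00485). These 4 HOX genes, which mark positions from the hindbrain backwards, had no hypothalamus array at the level of any brainstem array. NKX6-1, a factor of the ventral neural tube and motor neuron precursors, was at 6.75 to 7.27 in the hypothalamus and 7.53 to 7.63 in the brainstem (-0.63 ± 0.12, adjusted p = 0.0108).

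NEUROD1 drives neuronal differentiation, among others in granule neurons of the cerebellum and hippocampus. It read 12.61, 11.06, 13.74 and 13.59 in the brainstem and 9.26, 9.32, 8.89 and 10.10 in the hypothalamus, a difference of -3.36 ± 0.58 (adjusted p = 0.00686). It was not particular to the brainstem, since the cortex mean was 11.7 and the hippocampus mean 13.0. GATA3, a factor of brainstem and spinal interneurons, overlapped between the regions (8.78 to 10.57 against 9.91 to 10.54) and did not pass (-0.77 ± 0.36, adjusted p = 0.178). Without hypothalamus replicate 1 its difference was -1.14, with an adjusted p of 0.011.

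Of the forebrain and hypothalamic patterning factors only 3 were measured, so the labelled hypothalamus rests on few such markers. ISL1, a LIM factor of arcuate and motor neurons, read 8.74, 9.52, 9.74 and 9.26 against 7.55, 7.58, 7.45 and 7.40, a difference of 1.82 ± 0.20 (adjusted p = 0.00125). PAX6, a factor of forebrain, eye and hindbrain progenitors, was higher in the brainstem (-1.06 ± 0.20, adjusted p = 0.0111). NKX2-2, which both regions use ventrally, differed by -0.10 ± 0.19. TFAP2A, a factor of the neural crest, roof plate and hindbrain, was outside these lists. It read 10.16, 9.91, 10.50 and 10.04 in the brainstem and 7.33 to 7.48 in the hypothalamus (-2.76 ± 0.13, adjusted p = 3.12e-05).

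Of the monoamine genes 3 were measured. SLC6A4, the serotonin transporter of raphe neurons, was at 7.04 to 7.31 in the brainstem and 6.43 to 6.69 in the hypothalamus (-0.64 ± 0.10, adjusted p = 0.0045). The noradrenaline transporter SLC6A2 (0.15 ± 0.09) and AANAT, an enzyme of melatonin synthesis (0.29 ± 0.14), did not pass. The labelled tissues thus carried some defining markers on both sides, OXT, POMC and GHRH in the hypothalamus and HOX genes and SLC6A4 in the brainstem. Other defining markers did not follow. SST, a marker of the hypothalamus, was called higher in the brainstem, and GATA3, a marker of the brainstem, did not pass.

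**Figure D4:**
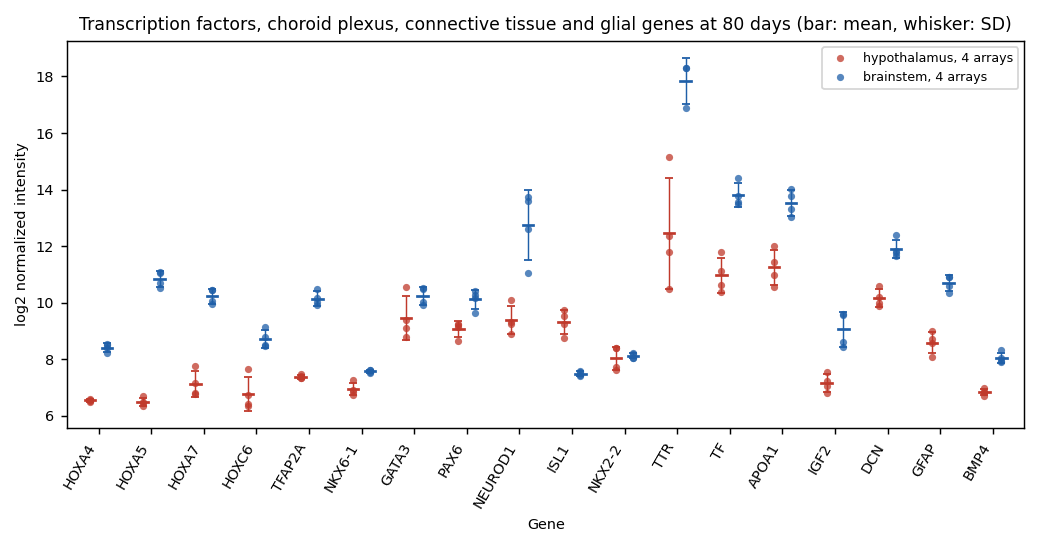
Level (log2 normalized intensity) of patterning factors and of choroid plexus, connective tissue and glial genes on the 4 hypothalamus (red) and 4 brainstem (blue) arrays, with the mean (bar) and SD (whisker), TTR having 3 brainstem values. The brainstem arrays lie wholly higher for the 4 HOX genes, TFAP2A and TF, and the hypothalamus arrays for ISL1, while GATA3 and NKX2-2 overlap.

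Glutamate receptor genes were higher in the hypothalamus where they differed. Of 8 measured genes of GABA, glycine and glutamate signalling, 3 were called (37.5%), all in that direction, against 13.6% of all genes. GRIA2 and GRIA3 encode subunits of the AMPA receptor, which carries fast excitation. GRIA2 was at 13.41, 13.00 and 13.01 on the 3 hypothalamus arrays with a value and at 10.72, 10.86, 10.69 and 10.63 in the brainstem, a difference of 2.42 ± 0.13 (adjusted p = 0.000118). In the authors' table the difference was 1.56, with an adjusted p of 0.125. GRIA3 read 10.31 to 10.73 against 9.14 to 9.27 (1.33 ± 0.10, adjusted p = 0.000271). For both genes the cortex mean (12.1 and 10.6) also exceeded the brainstem. The metabotropic receptor GRM5 was the third call (0.97 ± 0.27, adjusted p = 0.0416), and GRIA1 (0.62 ± 0.41) and GRIA4 (0.24 ± 0.20) did not pass.

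Among 41 genes for receptors of hormones, peptides and transmitters, 7 were higher in the hypothalamus (17.1%) and 2 in the brainstem (4.88%), shares near the 13.6 and 5.28% of all genes. The 7 comprised TSHR, the thyrotropin receptor (0.75 ± 0.12, by a probe near an edge), GHR, the growth hormone receptor (0.73 ± 0.13), and OXTR, the oxytocin receptor (0.60, adjusted p = 0.0165). ADORA3, by a probe near an edge, PTGFR, PGR and HCRTR2, the second orexin receptor, made up the rest, at 0.33 to 0.65. AGTR1, the angiotensin receptor, was higher in the brainstem (-1.45 ± 0.35, adjusted p = 0.0242, by a probe near an edge, lost under 5 alternatives), as was the endothelin receptor EDNRB (-0.74 ± 0.15, adjusted p = 0.0149).

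Choroid plexus genes were higher in the brainstem. Of 7 measured markers 5 were called there (71.4%, against 5.28% of all genes) and none in the hypothalamus, at a median of -1.83. With the replicate number as a block 3 were called there. TTR, the thyroxine carrier transthyretin, read 18.30, 16.88 and 18.30 on the 3 brainstem arrays with a value and 11.78, 12.37, 10.49 and 15.16 in the hypothalamus (-5.37 ± 1.03, adjusted p = 0.0134). Its single probe lay near an edge, and without brainstem replicate 1 or 4 the adjusted p was 0.0518 and 0.051. Those replicates read the same value, 18.30, since quantile normalization gives spots of equal rank one value. The size of the difference is therefore uncertain. TF, transferrin, which oligodendrocytes and liver also make, read 13.48 to 14.42 against 10.39 to 11.79 (-2.83 ± 0.33, adjusted p = 0.00151). IGF2 differed by -1.89 ± 0.30, the prostaglandin D synthase PTGDS by -0.99 ± 0.29 and ceruloplasmin, CP, by -0.36 ± 0.07. CP was not well above background on any hypothalamus array and was at least 1.20-fold higher in the brainstem. The mean level of the 7 markers was 9.34 to 10.78 on the hypothalamus arrays and 11.26 to 12.22 on the brainstem arrays. The part of choroid plexus in the other brainstem differences was not tested.

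Genes of meninges and connective tissue followed the same direction. Of 13 measured, 6 were higher in the brainstem (46.2%, against 5.28% of all genes) and 2 in the hypothalamus (15.4%, against 13.6%). DCN, the matrix proteoglycan decorin, was at 11.65 to 12.38 against 9.88 to 10.58 (-1.73 ± 0.20, adjusted p = 0.00163). BGN, MMP2, COL2A1, TIMP1 and COL3A1 were higher by 0.40 to 0.86 in the brainstem. Their mean level over the 13 markers was 8.09 to 8.15 on the hypothalamus and 8.43 to 8.61 on the brainstem arrays. SPP1 (0.36 ± 0.10) and TIMP2 (1.15 ± 0.16) were higher in the hypothalamus, TIMP2 by a single probe near an edge, and SPP1 had an adjusted p of 0.0942 with the replicate block.

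The plasma protein genes named here all leaned toward the brainstem, and only APOA1 passed. APOA1, the main apolipoprotein of high density lipoprotein, was higher in the brainstem by a probe near an edge (-2.28 ± 0.34, adjusted p = 0.00394). AHSG, SERPINA1 and ALB, the last by probes near an edge, had wide spreads and did not pass (-3.74, -2.11 and -1.92, adjusted p = 0.144, 0.185 and 0.162). HBB, the beta chain of haemoglobin, was at 11.00 to 12.12 in the hypothalamus and 10.95 to 12.11 in the brainstem, so that the ranges of the regions nearly coincided. SLC25A37, the iron carrier of mitochondria, was higher in the hypothalamus (0.66 ± 0.11, adjusted p = 0.00695).

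Glial genes were called mainly in the brainstem. Of 11 astrocyte and radial glia genes 3 were higher there (27.3%, against 5.28% of all genes) and 1 in the hypothalamus (9.09%, against 13.6%). GFAP, the intermediate filament of astrocytes, read 10.93, 10.91, 10.33 and 10.58 against 8.99, 8.72, 8.58 and 8.09 (-2.10 ± 0.21, adjusted p = 0.000885), with the cortex and hippocampus means at 7.94 and 8.75. MT3 (-0.51 ± 0.13) and FGFR3 (-0.31 ± 0.08) were also higher in the brainstem, and CHI3L1 (0.58 ± 0.14, by an edge probe) in the hypothalamus. The calls of MT3 and CHI3L1 were lost under 9 and 5 alternatives. VIM, widespread in immature glia, did not pass (-0.46 ± 0.26), and the gap junction gene GJA1 had a mean of 9.82 in both regions. Of 5 oligodendrocyte genes TF and CRYAB (-0.79 ± 0.21, adjusted p = 0.0352, lost under 7 alternatives) were higher in the brainstem (40%) and none in the hypothalamus.

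Of 34 genes of Wnt, hedgehog, BMP, FGF and Notch signalling, 6 were higher in the brainstem (17.6%, against 5.28% of all genes) and 3 in the hypothalamus (8.82%, against 13.6%). BMP4, a dorsalising signal of the neural tube, was at 7.89 to 8.32 in the brainstem and 6.71 to 6.97 in the hypothalamus (-1.21 ± 0.12, adjusted p = 0.000655), and BMP6 differed by -0.83 ± 0.17. The receptors BMPR1B (0.80 ± 0.12), ACVR2B (0.72 ± 0.17, lost under 6 alternatives) and ACVR2A (0.57) were higher in the hypothalamus. FGFR1, WNT5A, FGFR3 and SMO made up the remaining brainstem calls, at -0.76 to -0.29. Among 26 growth factor genes IGF2, PDGFB and ANGPT2 were higher in the brainstem (11.5%) and ANGPT1 (0.72 ± 0.16) and KITLG (0.72 ± 0.16) in the hypothalamus (7.69%). The probes of KITLG disagreed, at 0.12 and 1.33, and those of PDGFB ranged from -0.91 to 0.03. PDGFB had an adjusted p of 0.0744 with the replicate block.

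Most immune markers did not pass. Of 28 microglia and macrophage genes 3 were higher in the hypothalamus (10.7%, against 13.6% of all genes) and none in the brainstem. They were ITGB2, the beta chain of leukocyte integrins (0.65 ± 0.10), CD86 (0.47 ± 0.07) and IL10 (0.40). In the fit of all 24 groups ITGB2 and CD86 had adjusted p-values of 0.255 and 0.0925. Of 14 lymphocyte genes CD247, the zeta chain of the T cell receptor (1.14 ± 0.28, adjusted p = 0.0245), and CD5 were higher in the hypothalamus (14.3%). IL12A was higher in the brainstem (7.14%, against 5.28% of all genes). All 3 were lost with the replicate block (adjusted p = 0.0525, 0.0634 and 0.0881). B2M, the light chain of class I antigen-presenting molecules, was the single call of 6 in its list (16.7%), at 0.50 ± 0.12 (adjusted p = 0.0559 with the replicate block). None of 10 interferon-stimulated genes was called by limma, and 1 lysosomal gene of 13 (7.69%) was, HEXA (0.44 ± 0.12, adjusted p = 0.0607 with the replicate block).

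Genes of growth and metabolism showed no single direction. In the cell cycle list of 18 genes CDK4 (-0.52 ± 0.11) and MYC (-0.68 ± 0.18) were higher in the brainstem (11.1%, against 5.28% of all genes). ODC1 (0.55 ± 0.15) was higher in the hypothalamus (5.56%, against 13.6%). All 3 were lost with the replicate block (adjusted p = 0.073, 0.0874 and 0.0692), and the probes of MYC gave -1.04 and -0.32. LDHA (-0.56 ± 0.12) and the neuronal glucose transporter SLC2A3 (-0.87 ± 0.25) were higher in the brainstem. SLC2A3 was not firm, since its probes gave -1.55 and -0.19 and the call was lost under 9 alternatives, by its brightest probe with an adjusted p of 0.55. SCD and SQLE, enzymes of fatty acid and sterol synthesis, were higher in the hypothalamus by 0.60 and 0.46, as was HSD11B1, which regenerates active glucocorticoid, by 0.51. Under the replicate block LDHA (adjusted p = 0.0542), SQLE (0.09) and HSD11B1 (0.0597) were lost. PYGM, the glycogen phosphorylase of muscle that astrocytes also use, was at 8.92 to 9.37 in the brainstem and 7.22 to 7.93 in the hypothalamus (-1.42 ± 0.18, adjusted p = 0.00194). The muscle markers MYOD1, MB and TNNC2 did not pass (-0.19, 0.01 and 0.27), and CAPN3 was higher in the hypothalamus (0.67 ± 0.11).

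Several housekeeping genes stood among the largest hypothalamic differences, and the sequences of their probes bear on how they are read. The probes that carry the name GAPDH, a glycolytic enzyme of every cell, gave 1.44 and 1.97, and together a difference of 1.70 ± 0.17 (adjusted p = 0.000789). The array holds another pair of probes, described as GAPDH mRNA, which gave -0.35 and -0.39 and were not called (adjusted p = 0.287). The reverse complement of the first GAPDH-named probe holds a stretch of a GAPDH mRNA probe, marked in capitals.
GAPDH-named probe: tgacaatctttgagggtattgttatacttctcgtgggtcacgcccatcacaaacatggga
Its reverse complement: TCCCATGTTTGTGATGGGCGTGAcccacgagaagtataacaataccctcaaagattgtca
GAPDH mRNA probe: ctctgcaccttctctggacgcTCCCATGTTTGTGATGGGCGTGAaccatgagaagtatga

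The 2 kinds of probe thus read opposite strands, and only the pair that reads the strand opposite to the mRNA probes was higher in the hypothalamus. The array holds 34 such pairs, defined by a shared stretch of at least 20 bases between one probe and the reverse complement of the other. In each pair the probe with the lower signal was taken, as an order of signals and not of transcripts. Of 30 different probes of this kind 11 did not pass the filter on dim probes and differed by -0.08 to 0.17. Of the 19 that passed, 18 were higher in the hypothalamus, at a median of 0.55. Of their 20 different partners 8 were, at a median of -0.21. A dim probe could pass the filter on the arrays of a single region. The split by the filter therefore depends on the difference itself, and the 18 of 19 cannot be set against the partners as a test. Without regard to the filter, 26 of the 30 dimmer probes were higher in the hypothalamus, at a median of 0.36. Of the 32 different brighter probes 16 were, at a median of 0.02. The probes opposite to RPS2, RPL4 and ATP1B1, which encode ribosomal proteins and a subunit of the sodium pump, gave 1.48, 1.47 and 0.83, and the probes of those genes themselves -0.01, -0.21 and 0.33. These pairs were chosen after their values were seen. The part of such signal in the other hypothalamic calls was not tested.

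EEF1A1, the elongation factor of translation, also had probes that disagreed, and its 3 probes are printed for that reason.
EEF1A1 probe 1: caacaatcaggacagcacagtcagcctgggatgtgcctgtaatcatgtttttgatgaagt
EEF1A1 probe 2: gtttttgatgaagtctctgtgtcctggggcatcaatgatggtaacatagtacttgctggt
EEF1A1 probe 3: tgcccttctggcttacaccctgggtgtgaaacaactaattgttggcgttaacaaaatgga

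The first probe and the second, which lay near an edge, gave 2.14 and 1.76 and were averaged into a difference of 1.95 ± 0.14 (adjusted p = 0.00017). Probe 3, which had a value on 3 hypothalamus arrays and was the brightest, gave -0.90 (adjusted p = 0.00595). No transcript sequence was at hand to place them on a strand, and no direction is given for EEF1A1. BAX, a death-promoting partner of BCL2 (1.24 ± 0.23, adjusted p = 0.00908), DERL1, a channel of protein disposal at the endoplasmic reticulum (1.43 ± 0.17, adjusted p = 0.00188), FLAP, the leukotriene pathway protein (1.51 ± 0.17, adjusted p = 0.00137), and ATP5PD, a subunit of ATP synthase (1.22 ± 0.10, adjusted p = 0.000325), were further hypothalamic calls. The strand of their probes was not checked against a transcript. MIF, a cytokine (-2.02 ± 0.49, adjusted p = 0.0288, 3 hypothalamus values, a probe near an edge), was higher in the brainstem and had an adjusted p of 0.0655 with the replicate block.

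The later ages show in other animals, on the same slides, which of these differences were also present. At 100, 120, 130 and 145 days 23.8, 16.2, 10.8 and 13.7% of the genes tested were called in either direction, and 0.727% on the day after birth, when the arrays of a region deviated from their mean with an SD of up to 0.85. Of the 458 genes called at 2-fold or more at 80 days, 268 were called in the same direction at 100 days and none in the opposite one. At 120 days these numbers were 152 and 4 of 457, at 130 days 145 and 1 of 458, at 145 days 115 and 2 of 457, and after birth 16 and 0 of 455. The change of the difference from 80 to 145 days was tested as an interaction of region with age. It was called for 550 of 12802 genes (4.3%), 260 with a rise of the hypothalamus relative to the brainstem and 290 with a fall, and for 78 and 107 with the replicate number as a block.

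Position markers kept their direction, and several narrowed. HOXA5, HOXA7, HOXA4 and HOXC6 were called higher in the brainstem at every later age, HOXA7 at -4.18, -3.06, -3.06, -2.74 and -2.94 in order of age. HOXA5 shrank from -4.34 to -2.89 at 145 days (interaction 1.45, adjusted p = 0.011) and HOXA4 from -1.87 to -1.01 (interaction 0.86, adjusted p = 0.00468), the latter in fitted values of a gene below background in the hypothalamus at 80 days. TFAP2A was also called at each age and shrank by 2.12 (adjusted p = 0.000586), while NKX6-1 widened to -1.54 (interaction -0.92, adjusted p = 0.0277). On the hypothalamic side ISL1, GAL, AGRP and GRIA2 were called at all later ages, ISL1 between 1.21 and 1.86, GAL up to 2.50 and AGRP up to 2.78 after birth.

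Other differences narrowed between 80 and 145 days. PRL went from -4.11 at 80 days to -3.61 at 100 days and -0.81 at 145 days, when it was no longer called (interaction 3.30, adjusted p = 0.0109). TF went from -2.83 at 80 days to -3.39 at 100 days and -0.54 at 145 days (interaction 2.29, adjusted p = 0.00764), and NEUROD1 from -3.36 at 80 days to 0.08 at 100 days and -0.02 at 145 days (interaction 3.34, adjusted p = 0.0137). The hypothalamic difference of OXT narrowed from 3.55 to 2.09 at 145 days (interaction -1.46, adjusted p = 0.0134) and that of POMC from 1.94 to 0.45 (interaction -1.49, adjusted p = 0.0143). GRIA3, called at 80 days only, stood at -0.33 at 145 days (interaction -1.65, adjusted p = 0.00382).

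Some peptides turned toward the hypothalamus with age. CRHBP, which binds corticotropin-releasing hormone, went from -0.35 at 80 days to 1.59 at 145 days (interaction 1.93, adjusted p = 0.00764), ADCYAP1, or PACAP, from 0.18 to 1.86 (interaction 1.68, adjusted p = 0.00816) and NPVF from 1.21 to 2.54 (interaction 1.33, adjusted p = 0.00111). TAC1 and SST, both higher in the brainstem at 80 days, stood at 0.33 and 0.81 at 145 days without passing there (interaction 1.31 and 1.77, adjusted p = 0.00764 and 0.0494).

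**Figure D5:**
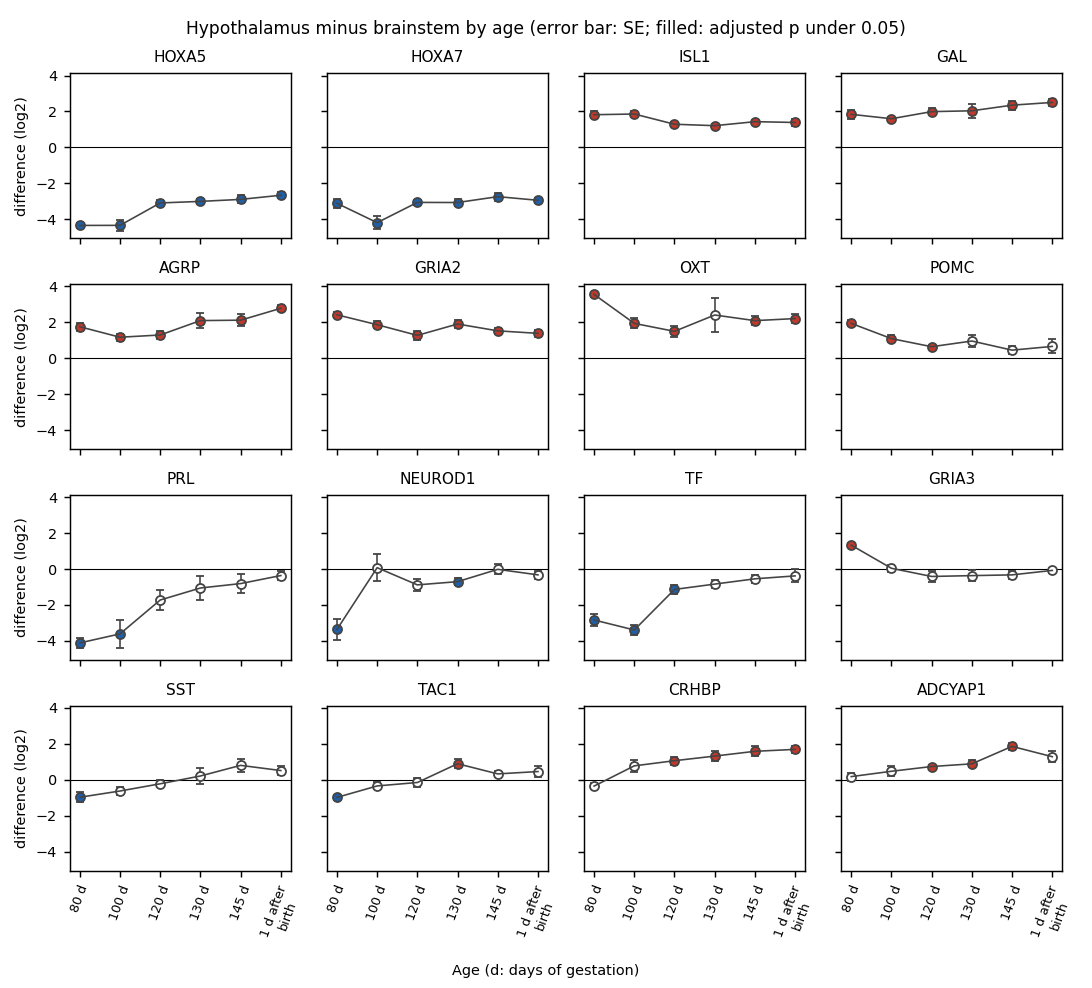
Difference between hypothalamus and brainstem (log2, vertical axis) at 80, 100, 120, 130 and 145 days of gestation and 1 day after birth (horizontal axis) for 16 genes, with the SE as error bar and filled points where the adjusted p was under 0.05. HOXA5, HOXA7, ISL1, GAL, AGRP and GRIA2 are called at each age, PRL, NEUROD1 and TF approach 0, and SST, TAC1, CRHBP and ADCYAP1 rise from 80 to 145 days.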

How the data were processed

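One-colour Agilent sheep arrays held 15208 gene spots for 15008 probes of 60 bases. The deposited scanner files give the intensity of each spot and its local background, per the file headers from Feature Extraction 10.1.1.1. The authors' series table gives normalized log2 values, for which their methods name limma with background correction and quantile normalization. It served as an alternative only. Intensities of all 95 arrays were corrected with normexp (offset 50), spots flagged as outliers were set missing, and arrays were quantile normalized together (limma 3.58.1 in R 4.3.3). Probes stayed if they were 1.1 times the 95th percentile of 77 negative control spots on at least 4 of the 8 arrays. Probes of one gene were averaged, and of these a probe missing on some arrays was left out where another was complete. Symbols came from the array files and a RefSeq table for 1559 probes, and 13449 had none and were only counted.

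Hypothalamus and brainstem at 80 days (4 and 4 arrays) were compared with lmFit and eBayes, two-sided, with Benjamini-Hochberg adjustment over all genes. The members of the comparison, the 26 gene lists and the tests were chosen with earlier results of these data known. Named were the 12 largest differences each way among called symbol genes with arrays that did not overlap and were all well above background in the brighter region, all measured hormones, patterning factors and monoamine genes, and in every other list up to 2 calls each way or the brightest member. Genes from the probe pairs on opposite strands, and list members given beyond this rule, were added after their values were seen. 1 measured patterning factor and 1 probe sequence are not reported here, and the factor was left out of its list. A gene below background on all arrays of a region is given as a bound from the other region's mean. The dimmer level was, on each array, the larger of the gene's own signal and the dimmest signal well above background.

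The main fit did not pair the arrays, and the replicate number was a block in an alternative only. Same-numbered arrays deviated together from their region means over 11880 genes (correlations of 0.190, 0.117, 0.103 and 0.119). The labels do not say what the numbers mark. Over 9409 genes without probes near the edges the correlations were 0.169, -0.00846, 0.0766 and 0.00736. There hypothalamus replicates 2 and 4 correlated more with a brainstem array of another number, at up to 0.165 and 0.140. In data simulated for this comparison over 11877 genes, 38% of log2 changes of 0.5 were recovered, 82% of 1 and 94% each of 2 and 4, and 10.5% of calls fell on unchanged genes. The number of arrays limits the precision. The p-values measure the spread between arrays, in which fetus, slide and position on the array are mixed, and one pair of the fetuses were twins. The edges are the outer 12 rows and 4 columns of an array. Figures were drawn with matplotlib.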

Additional observations from a re-analysis of the deposited data

Results flagged for a closer look

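A single array stood far from the other 3 of its region for 9 of the 89 named genes, by the gap to its nearest neighbour over the whole range of the 4 arrays (Dixon's test at the 95% level). By chance about 1 in 20 groups of 4 arrays would pass it. Each gene was tested in both regions, so the count found is near that chance share. In the hypothalamus these were GNRH1 (0.925, replicate 2 highest at 7.76), BMPR1B (0.901, replicate 4 lowest), LHB (0.858, replicate 1 highest), CAPN3 (0.842, replicate 1 lowest) and CD86 (0.834, replicate 1 lowest). In the brainstem they were PRNP (0.900, replicate 4 lowest), GRP (0.886, replicate 2 highest at 8.89), ADCYAP1 (0.860, replicate 3 highest) and CDK4 (0.851, replicate 3 highest).

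The difference between the regions changed from 80 to 145 days for 22 of the named genes by the test of the interaction. The hypothalamus gained on the brainstem for NEUROD1 (3.34), PRL (3.30), TF (2.29), TFAP2A (2.12), CRHBP (1.93), SST (1.77), ADCYAP1 (1.68), HOXA5 (1.45), NPVF (1.33), TAC1 (1.31), HOXA4 (0.86), HSD11B1 (0.71) and MT3 (0.64). It lost for GRIA3 (-1.65), POMC (-1.49), OXT (-1.46), DERL1 (-1.27), UCN (-0.999), NKX6-1 (-0.92), GRIA2 (-0.89) and SLC25A37 (-0.73). The averaged value of EEF1A1 gave -2.41, to which no direction is given, since its probes disagree. UCN went from 0.29 at 80 days to -0.71 at 145 days. DERL1 and SLC25A37 were called at 80 days only among the ages compared.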

How the results depend on the processing

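Of the 73 named genes that were called, 72 kept their direction under every alternative in which they had a value. EEF1A1 was the exception (-0.90 by its brightest probe). Of the 73, 37 were called in every such alternative, EEF1A1 among them. Genes measured only by probes near an edge had no value in the setting without edge spots. Counts of 1659 and 645 calls became 994 and 442 with the replicate number as a block, 832 and 434 in the fit of all 24 groups, and 898 to 2265 and 360 to 852 when single arrays were left out. Leaving out hypothalamus replicate 4 gave 1098 and 483, and brainstem replicates 1 to 4 gave 898, 932, 1028 and 924 against 360, 391, 370 and 396. With the scanner's signal brought to a common 75th percentile there were 1092 brainstem calls, and at 2-fold or more 808 and 531 in place of 266 and 192. That setting adds no offset, and dim genes differed more (HOXA5 -8.42, AGRP 4.40, GHRH 4.28). The block left 78 and 107 interaction calls of 260 and 290 and 3 of 5 choroid plexus calls, which ranged from 3 to 5 without single arrays (3 without brainstem replicate 1). The authors' table held 1 glutamate call of 3.

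List medians under the 75th percentile scaling were -0.42 for endothelium, -0.32 for fatty acid synthesis, -0.17 for Wnt and BMP signalling, -0.22 for receptors, -1.07 for connective tissue, -0.18 for growth factors, -0.38 for cell cycle, -0.26 for muscle, -0.68 for lymphocytes, -0.44 for steroids, -0.37 for immediate early genes, 0.16 for interferon-stimulated genes, -4.49 for hindbrain and -0.50 for forebrain factors. In the authors' table they were -0.16 for monoamines, 0.0768 for receptors, -0.68 for connective tissue and 0.11 for lymphocytes. An offset of 16 gave -0.59 for connective tissue and -2.56 for hindbrain factors, and quantile normalization of the 8 arrays -0.50 for connective tissue. Brightest probes gave 0.0712 for microglia, 0.18 for lysosome and 0.0932 for interferon-stimulated genes. Without edge spots, an alternative chosen after seeing the data, the latter had 0.19 and hindbrain factors -2.52. Without single arrays the medians ranged from 0.00489 to 0.0708 for receptors, -0.0625 to 0.119 for steroids and -0.0873 to 0.0794 for interferon-stimulated genes. The cause was not tested.

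Reversals besides EEF1A1 were of genes not called. They were LHB (-0.45 in the authors' table, -0.56 by its brightest probe), PRNP (0.0147 with the offset of 16, 0.00088 with quantile normalization of the 8 arrays, -0.0755 to 0.0630 without single arrays), IFNAR1 (0.29 with the scaled signal, 0.0666 by its brightest probe), ADCYAP1 (-0.0054 to 0.392 without single arrays) and NKX2-2 (-0.222 to 0.0297 without single arrays). Dim probes limit the depth, since 15 genes were called with no hypothalamus array well above background and 15 with no brainstem array.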

Other observations

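Cortex and hippocampus at the same age place some of the brainstem differences among 4 regions. GFAP, TFAP2A, TF and PYGM were highest in the brainstem, whose means were 10.7, 10.2, 13.8 and 9.10, against 7.94, 7.04, 8.93 and 6.92 in the cortex and 8.75, 7.01, 9.72 and 7.61 in the hippocampus. TAC1 had means of 11.8 and 12.8 in hypothalamus and brainstem and of 8.81 and 10.4 in cortex and hippocampus. ADCYAP1, whose hypothalamus and brainstem means of 11.98 and 11.81 did not differ beyond the spread, had 9.97 and 10.1 there. UCN, the stress peptide urocortin, was at 10.6 in the cortex, above the 8.47 and 8.18 of hypothalamus and brainstem and the 7.93 of the hippocampus. These means come from arrays on other slides and were not tested.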
